A study of Arabidopsis thaliana with 24 samples.

Results

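Tsu-1 and Kas-1, natural accessions of Arabidopsis thaliana, were compared by expression arrays of their rosette leaves in wet soil. The 12 arrays are all those that the labels give as leaf and wet, out of 24 arrays in the study, with 6 of Tsu-1 and 6 of Kas-1. Tsu-1 came from stock CS1640 and Kas-1 from stock CS903. The labels name no transgene or mutation. Plants were kept 1 to a pot on a ceramic rooting substrate with a 10-h photoperiod at 23 °C by day and 18 °C by night. The wet pots were kept near 90% of their water, while the dry pots of the other 12 arrays, 6 of each accession, were brought to about 50% on day 5. Arrays are named here by the number in their titles, which runs from 7 to 12 in each wet group.

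Natural accessions of this species differ in when they flower and in which defence compounds and immune receptors their leaves hold. The MADS-box protein FLC holds back flowering by repressing the integrator genes SOC1 and FT, and cold exposure silences it. Salicylic acid drives a defence programme whose usual leaf markers are the secreted PR proteins. Glucosinolates are sulfur-rich defence compounds of the cabbage family, whose side chains vary between accessions with the genes of the AOP and FMO GS-OX families.

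Total RNA was labelled as biotinylated cRNA, and the deposited table holds log2 expression of 20514 loci, 1 value for each array. The medians of the wet arrays lay between 6.79 and 6.87. The 12308 loci with a mean over all 24 arrays above the 40th percentile (6.19) were tested in limma, and those with an adjusted p under 0.05 are referred to as called. The design text names 3 biological replicates for each combination of accession and soil, whereas each has 6 arrays, and the labels do not say which arrays share a plant or an RNA. What the p-values measure is thus the scatter of single arrays, and some of it may be technical.

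The Tsu-1 wet arrays did not form an even group. They fell into close pairs, 7 with 9, 8 with 10 and 11 with 12, with correlations across the tested loci of 0.979 to 0.983 within pairs. Between the pairs 7 and 9 and 8 and 10 the correlations were 0.872 to 0.892, whereas the 6 Kas-1 wet arrays correlated with each other at 0.958 to 0.985. Tsu-1 arrays 7 and 9 were also the farthest from Kas-1 (0.838 to 0.906), and arrays 8 and 10 the nearest (0.923 to 0.959). The median SD between arrays was 0.224 in Tsu-1 and 0.150 in Kas-1. Counts are therefore also given without Tsu-1 arrays 7 and 9.

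The labelled tissue was checked against marker genes. The 8 light-harvesting genes tested averaged between 12.9 and 13.5 on every wet array, close to the top of the scale (14.2). Markers of trichomes, flowers and seeds (3, 6 and 4 in the table) and 5 of 7 root markers lay below the filter. So did 7 of 10 guard cell and stomatal lineage markers, of which leaves hold the cells. Lying below the filter thus does not show that a cell type was absent. None of the 8 light-harvesting genes, of the 2 mesophyll markers or of the 3 guard cell and stomatal lineage markers tested was called over all 12 arrays. With no filter 1 of the 10 guard cell and stomatal markers was called higher. The mean of the mesophyll markers was 12.05 and 11.87 on Tsu-1 arrays 7 and 9, 13.36 and 13.09 on arrays 8 and 10, and 12.73 to 13.01 in Kas-1. Without Tsu-1 arrays 8 and 10, 4 light-harvesting genes, 1 mesophyll marker and 1 guard cell and stomatal marker were called lower.

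In wet soil, 3703 of the 12308 tested loci (30.1%) differed between the accessions. In Tsu-1, 1624 were higher (13.2%) and 2079 lower (16.9%). Most of these differences were small: 1907 were under 0.5 on the log2 scale, the median size of a called difference was 0.49, and 391 loci (3.18%) differed by more than 2-fold, 188 higher and 203 lower in Tsu-1. Only 15 called loci differed by more than 8-fold. An unadjusted p under 0.05 was found at 5140 loci, where 615 would come by chance. The 6 arrays of one accession lay wholly above the 6 of the other at 1512 loci (12.3%), with Tsu-1 above at 649 (5.27%) and below at 863 (7.01%), and 276 of these were called and differed by more than 2-fold.

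Without Tsu-1 arrays 7 and 9, 2356 loci were called (19.1%), 1078 higher (8.76%) and 1278 lower (10.4%). Of the 3703 loci, 2053 (55.4%) kept their call and direction without them, as did 320 of the 391 loci over 2-fold (81.8%). Without Tsu-1 arrays 8 and 10, a setting chosen after seeing the data, 5134 loci were called (41.7%) and 821 of them differed by more than 2-fold. The share of loci called ran from 25.5% of the 3077 dimmest tested loci to 33.4% of the 3077 brightest, and from 29.3% on chromosome 5 to 31.6% on chromosome 2.

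**Figure D1:**
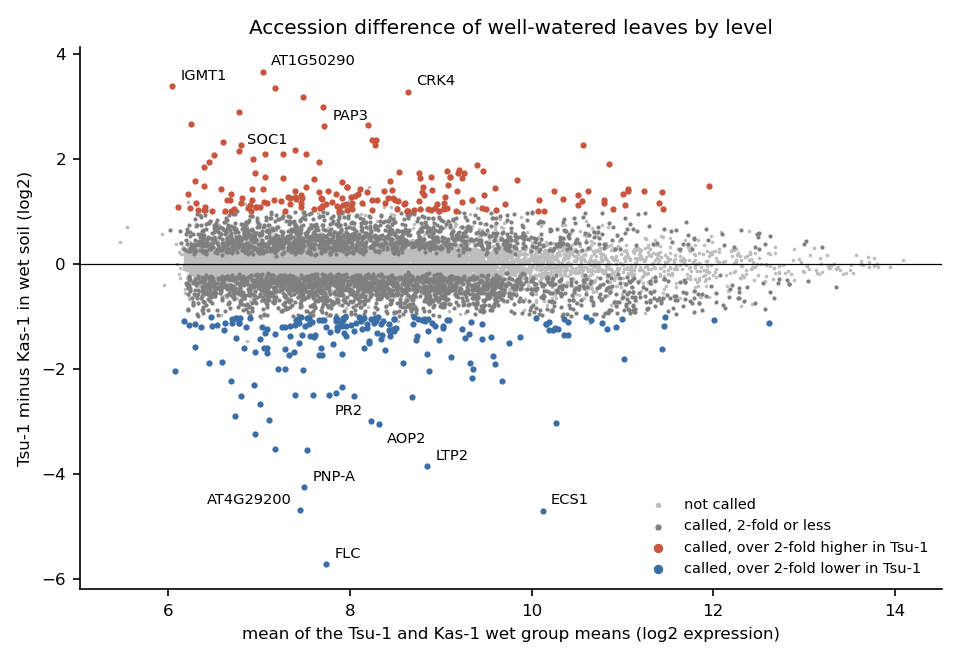
Log2 difference of Tsu-1 minus Kas-1 in wet soil against the mean of both group means for the 12308 tested loci, 1 point a locus. The 391 called loci over 2-fold are coloured, and FLC, at -5.72, lies farthest from 0.

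FLC (AT5G10140) showed the largest difference of all tested loci. Its log2 values in Kas-1 had a lowest, median and highest of 10.10, 10.59 and 11.16, and in Tsu-1 of 4.73, 4.81 and 5.31. All 6 Kas-1 arrays lay far above all 6 Tsu-1 arrays, and the Tsu-1 values sat at the low end of the scale. The means were 10.60 ± 0.38 and 4.88 ± 0.22 (SD, n = 6 arrays each), a log2 difference of -5.72 (SE 0.27, adjusted p = 1.46e-13), or 52.7-fold. The data hold no detection calls, and the Tsu-1 mean lay below the lower quartile of all locus means (5.21). With every value under that quartile raised to it, the fold was 41.4. The FLC relatives MAF1 to MAF5 lay below the filter in both accessions, with means of 3.50 to 5.64.

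SOC1 (AT2G45660), a MADS-box integrator that FLC represses, differed the other way. Its lowest, median and highest values were 5.16, 5.79 and 6.11 in Kas-1 and 7.17, 7.97 and 8.11 in Tsu-1. The groups did not overlap, and the log2 difference was 2.16 (SE 0.39, adjusted p = 2.67e-04). FUL, a MADS-box gene of the shoot meristem and fruit that also promotes flowering, was higher by 1.26 (SE 0.20, adjusted p = 6.13e-05), from 6.85 ± 0.16 in Kas-1 to 8.10 ± 0.30 in Tsu-1. TSF, the closest relative of FT, was higher by 1.04 (adjusted p = 0.00131).

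Of the 14 flowering regulators tested, 5 were called higher and 2 lower, where 13.2% and 16.9% of all tested loci were. The list had a median log2 difference of 0.05, against -0.01 for all tested loci. The other called members were the repressor genes TEM1 (0.40) and SVP (0.29), both higher, and FY (-0.38) and FLK (-0.24), which encode autonomous pathway factors that keep FLC low, both lower. Without Tsu-1 arrays 7 and 9, 3 were called higher and 1 lower. FT was at 5.06 in Kas-1 and 5.04 in Tsu-1, and FRI, the activator of FLC, at 4.99 and 4.93, both below the filter. CO, the day-length sensor gene upstream of FT, also lay below it, and with no filter it was higher in Tsu-1 by 0.88 (5.52 against 4.64, adjusted p = 1.07e-06), where 20.7% of all 20514 loci were called.

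Loci were named by size among those whose higher group mean exceeded the median of tested means (7.95). Beside FLC, the 11 with the largest lower values in Tsu-1 were led by ECS1 (AT1G31580), a cell wall protein gene. Its lowest, median and highest values were 11.99, 12.39 and 13.15 in Kas-1 and 7.36, 7.69 and 8.25 in Tsu-1. It was bright in Kas-1 and close to that median in Tsu-1, without overlap, with a log2 difference of -4.69 (SE 0.21, adjusted p = 6.75e-14). LTP2 (AT2G38530), a lipid transfer protein gene of the leaf surface, ran from 9.72 to 11.46 in Kas-1 (median 11.02) and from 5.97 to 8.09 in Tsu-1 (median 6.69), and the log2 difference was -3.84 (SE 0.38, adjusted p = 1.12e-07). AT4G29200 had the smallest p-value of all named loci, with means of 9.80 ± 0.17 in Kas-1 and 5.11 ± 0.26 in Tsu-1 (-4.68, SE 0.10, adjusted p = 2.96e-20).

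The remaining loci of that rule were PNP-A, PR2 and AOP2, described below, and BG3 (-3.24), a glucanase gene, AT1G73490 (-3.54), AT2G32160 (-3.51), AT5G55450 (-3.04) and AT1G65370 (-2.97). For AT5G55450 the Tsu-1 arrays spread from 7.51 to 10.78, with arrays 8 and 10 highest, and all of them stayed below the lowest Kas-1 array (11.32). The 12 loci above that level with the largest higher values in Tsu-1 were AT1G50290 (3.66), AT1G27030 (3.35), CRK4 (3.28), AT1G47400 (3.17), AT2G29290 (2.98), AT4G21640 (2.89), AT4G20480 (2.65), PAP3 (2.62), AT2G29995 (2.37), BT4 (2.37), AT1G67865 (2.26) and WRR4 (2.26). For all 24 loci named by size the accessions did not overlap on any array. This adds no support, since the loci were chosen by their difference on these same arrays.

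**Figure D2:**
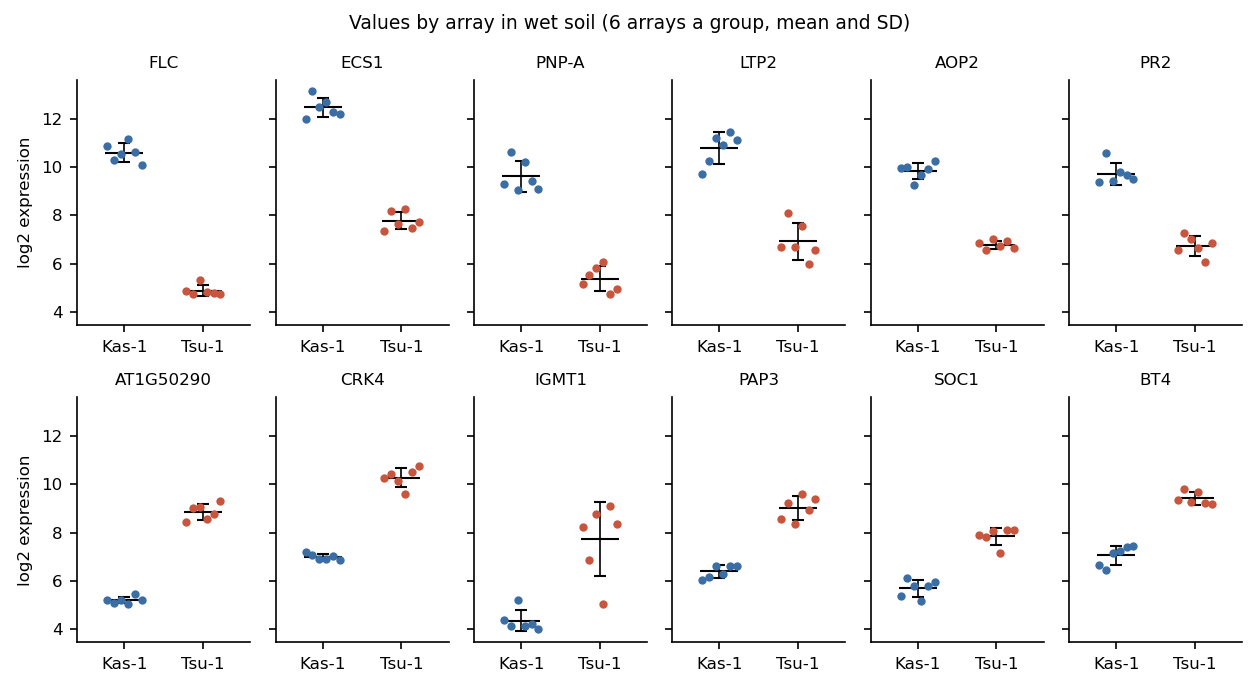
Log2 expression of 12 loci on each wet array, with 6 points a group and the group mean and SD as black bars. The upper row holds loci lower in Tsu-1 and the lower row loci higher in Tsu-1, and IGMT1 is the 1 locus shown whose groups overlap.

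AT1G50290 had lowest, median and highest values of 5.06, 5.22 and 5.45 in Kas-1 and of 8.45, 8.91 and 9.30 in Tsu-1 (3.66, SE 0.15, adjusted p = 6.78e-15). Its Kas-1 arrays lay around the lower quartile of all locus means (5.21), far below every Tsu-1 array. AT1G47400 was among the most variable of these loci, with 5.0, 5.83 and 6.87 in Kas-1 and 7.28, 9.0 and 10.35 in Tsu-1 (3.17, SE 0.56, adjusted p = 2.08e-04). Its lowest Tsu-1 array was array 9 and its highest were arrays 11 and 12. BT4, which encodes a BTB and TAZ domain protein, was at 7.06 ± 0.41 in Kas-1 and 9.42 ± 0.26 in Tsu-1 (2.37, SE 0.16, adjusted p = 2.03e-10).

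Salicylic acid output genes were lower in Tsu-1. PNP-A (AT2G18660), a secreted natriuretic peptide gene, had lowest, median and highest values of 9.06, 9.37 and 10.61 in Kas-1 and 4.72, 5.34 and 6.08 in Tsu-1 (-4.24, SE 0.43, adjusted p = 1.28e-07). PR2 (AT3G57260, BGL2 in RefSeq), a secreted glucanase gene, had 9.38, 9.58 and 10.60 in Kas-1 and 6.07, 6.76 and 7.26 in Tsu-1 (-2.99, SE 0.33, adjusted p = 4.95e-07). PR1 (AT2G14610), the most used marker of salicylic acid defence, had 7.14, 8.0 and 9.77 in Kas-1 and 5.46, 5.72 and 5.85 in Tsu-1 (-2.67, SE 0.52, adjusted p = 5.71e-04). The groups did not overlap for any of these genes, and Kas-1 arrays 8 and 10 held the highest values of all of them.

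PR5 (-1.71, adjusted p = 0.00105) and the wall-associated kinase gene WAK1 (-1.43, adjusted p = 4.87e-04) were lower as well, so that 0 of the 6 tested output genes were called higher and 5 lower, with a median of -2.19. The member that was not called was GRX480, a glutaredoxin gene (0.65, adjusted p = 0.401), which was called higher without Tsu-1 array 8 (1.2, adjusted p = 0.0495). The counts were the same without Tsu-1 arrays 7 and 9 and in dry soil. The filter kept genes that are high in 1 accession, and with no filter 0 of the 11 output genes in the table were called higher and 7 lower, where 9.53% and 11.2% of all loci were called higher and lower.

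Among genes for the synthesis and signalling of salicylic acid the differences were mixed. ACD6, an ankyrin-repeat membrane protein gene that raises salicylic acid defence, was lower in Tsu-1, with 9.22, 9.58 and 9.72 in Kas-1 and 7.43, 7.54 and 8.05 in Tsu-1 (-1.89, SE 0.22, adjusted p = 1.12e-06). The transcription factor genes WRKY54 (-1.74, adjusted p = 6.45e-05) and WRKY70 (-0.89, adjusted p = 0.00489) were also lower. CBP60G, an activator gene of salicylic acid synthesis, was higher by 1.27 (SE 0.29, adjusted p = 0.00247). Of 11 tested members 1 was called higher and 3 lower, where 13.2% and 16.9% of all tested loci were. Counts were the same without Tsu-1 arrays 7 and 9. In dry soil 0 were called higher and 5 lower, where 16.8% and 13.8% of all tested loci were. The synthesis gene ICS1 (-0.52, adjusted p = 0.0876), the transporter gene EDS5 (-0.48, adjusted p = 0.145), the receptor gene NPR1 (-0.20, adjusted p = 0.236) and EDS1 (-0.22, adjusted p = 0.387) were not called in wet soil. ICS1 and EDS5 were called lower with only the wet arrays fitted in limma (adjusted p = 0.0064 and 0.032). Both were also called lower with array weights (adjusted p = 0.0083 and 0.023).

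Of 9 tested receptor kinases of the cysteine-rich (CRK) family, 1 was called higher and 2 lower, near the share of all tested loci (30.1%). CRK4 (AT3G45860) was higher in Tsu-1, with 6.86, 6.97 and 7.22 in Kas-1 and 9.61, 10.33 and 10.75 in Tsu-1 (3.28, SE 0.15, adjusted p = 6.75e-14). CRK5 (-1.04, adjusted p = 1.68e-05) and CRK28 (-0.88, adjusted p = 1.35e-04) were lower. The other 23 of the 32 members in the table lay below the filter.

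With no filter 5 of the 32 CRK genes were called higher and 5 lower, where 9.53% and 11.2% of all loci were. CRK21 was at 3.65 in Kas-1 and 6.66 in Tsu-1 (3.01, adjusted p = 7.7e-10), CRK22 at 4.1 and 6.90 (2.80, adjusted p = 4.28e-14) and CRK14 at 4.67 and 7.08 (2.41, adjusted p = 4.41e-06). CRK29 went the other way, from 6.70 to 4.84 (-1.86, adjusted p = 4.73e-05). The lower mean of each of these 4 genes lay under the lower quartile of all locus means, so the differences are of array signal. CRK genes are similar in sequence and many lie side by side, and probes shared between them could not be checked.

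All 3 tested wall-associated kinase genes were called lower in Tsu-1, where 16.9% of all tested loci were. They were WAK1 and WAK2 (-1.08, adjusted p = 4.79e-06), which lie in 1 cluster, and WAKL22 (-0.53, adjusted p = 2.15e-04). WAK1 was also counted among the salicylic acid output genes. With no filter the same count of 3 was called lower among 9 members, where 11.2% of all loci were. The other members were at or under 5.97 in both groups. Among the nucleotide-binding immune receptors (NLR), 3 of 10 tested genes were called higher and 1 lower, where 13.2% and 16.9% of all tested loci were. WRR4, a white rust resistance gene, was higher by 2.26 (SE 0.25, adjusted p = 6.34e-07), with 6.87, 7.25 and 7.34 in Kas-1 and 8.39, 9.49 and 10.43 in Tsu-1, where arrays 7 and 9 were highest and 8 and 10 lowest. RPS4 (0.72) and RPP13 (0.56) were higher, and the helper gene ADR1 was lower (-1.03, adjusted p = 7.9e-06). Without Tsu-1 arrays 7 and 9, WRR4 was the 1 gene called higher (1.81, adjusted p = 1.07e-06) and ADR1 the 1 called lower.

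Of the 5 tested genes for side-chain steps of aliphatic glucosinolates, 2 were called higher and 1 lower, where 13.2% and 16.9% of all tested loci were. AOP2 (AT4G03060), which makes alkenyl glucosinolates, was lower in Tsu-1, with 9.25, 9.93 and 10.25 in Kas-1 and 6.58, 6.8 and 7.0 in Tsu-1. The spread within each group was small against the distance between them, and the log2 difference was -3.05 (SE 0.19, adjusted p = 3.5e-11). FMO GS-OX4 (1.43, adjusted p = 1.12e-04) and FMO GS-OX1 (0.91, adjusted p = 0.00296), which oxygenate the side-chain sulfur one step earlier, were higher. None of the 15 tested genes for the core of aliphatic glucosinolates was called in wet soil, where the median was 0.14, while 8 of 15 were called higher and 0 lower in dry soil, where 16.8% of all tested loci were called higher. None of the 15 was called for the difference between the soils. The regulator gene MYB28 differed by 0.24 in wet soil (adjusted p = 0.203) and by 0.78 in dry soil (adjusted p = 3.3e-04), and the adjusted p of the difference between the soils was 0.674.

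In the indole branch IGMT1 (AT1G21100), a methyltransferase gene, had lowest, median and highest values of 4.03, 4.18 and 5.21 in Kas-1 and 5.04, 8.31 and 9.11 in Tsu-1. The groups overlapped through Kas-1 array 9 and Tsu-1 array 10, and the log2 difference was 3.38 (SE 0.57, adjusted p = 1.45e-04). CYP81F2 (0.97, adjusted p = 0.0468) and CYP81F3 (0.42, adjusted p = 0.0236), hydroxylase genes that act before it, were higher, and the glutathione transferase gene GSTF9 was lower (-0.36, adjusted p = 0.0134). The list had 3 of 13 tested members called higher and 1 lower, near the share of all tested loci (30.1%). Without Tsu-1 arrays 7 and 9 the counts were 1 and 1. Of 5 genes for glucosinolate breakdown, 2 were called higher and 1 lower, where 13.2% and 16.9% of all tested loci were. The atypical myrosinase gene PEN2 (0.66, adjusted p = 0.00128) and the nitrile specifier gene NSP5 (0.49, adjusted p = 0.00436) were higher and MVP1 was lower (-1.18, adjusted p = 2.8e-09).

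Genes of flavonol synthesis were lower in Tsu-1. FLS1, flavonol synthase, had 7.12, 7.43 and 7.85 in Kas-1 and 5.30, 6.15 and 6.74 in Tsu-1, without overlap (-1.40, SE 0.20, adjusted p = 2.34e-05). UGT78D1, a flavonol rhamnosyltransferase gene, was lower by 3.01-fold (-1.59, SE 0.16, adjusted p = 1.88e-07). The entry enzymes PAL1 (-0.59) and C4H (-1.08), then CHS (-1.0), CHI (-0.32) and F3H (-0.78) were lower too. In all, 0 of 9 tested members were called higher and 7 lower, with a median of -0.78, and 0 and 6 without Tsu-1 arrays 7 and 9. With no filter 0 and 8 of the 19 members in the table were called, where 9.53% and 11.2% of all loci were. Each wet Tsu-1 array had a lower list mean (6.8 to 7.44) than each Kas-1 array (7.61 to 7.99).

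**Figure D3:**
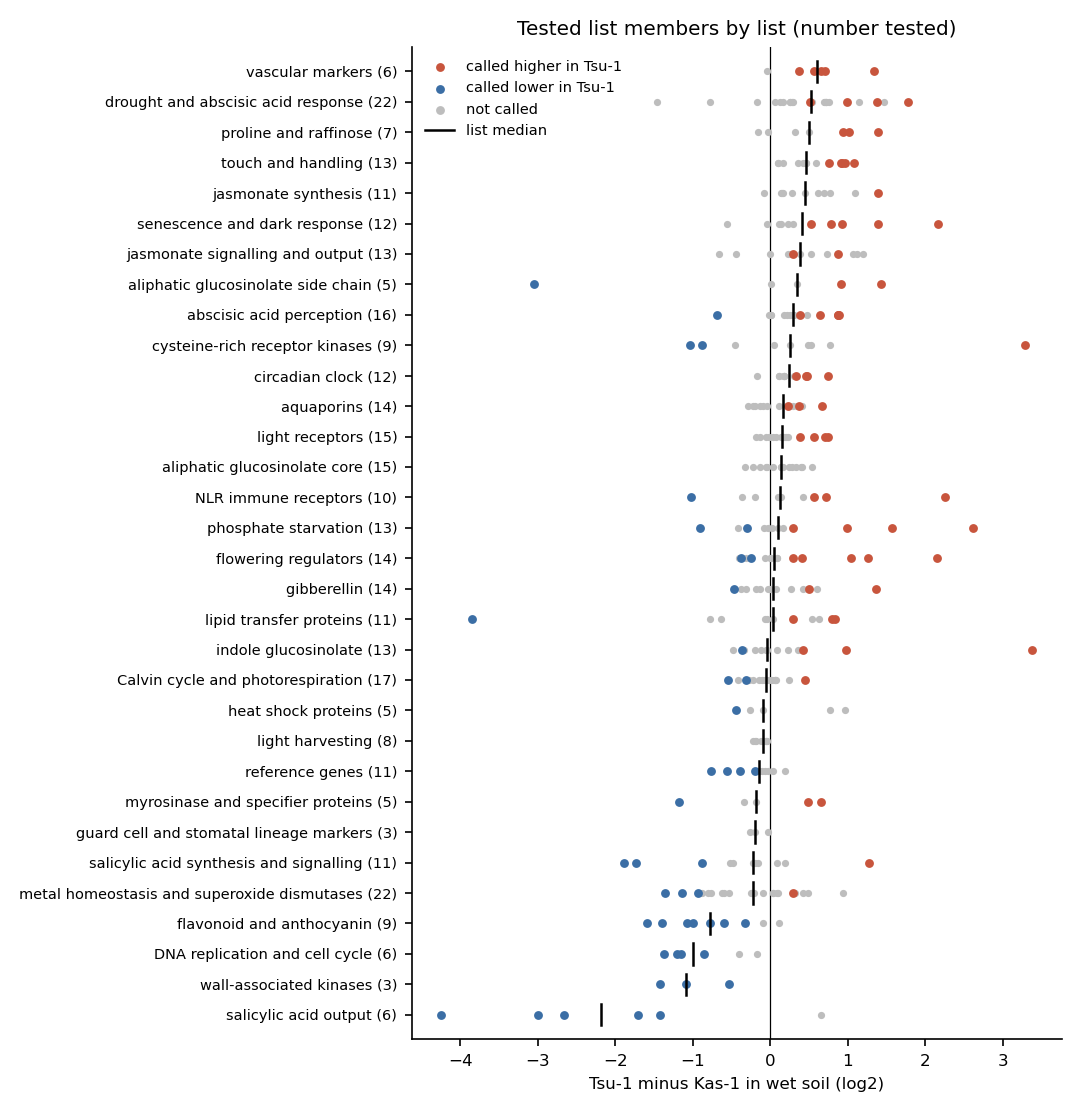
Log2 difference of Tsu-1 minus Kas-1 in wet soil for each tested member of the 32 lists with at least 3 tested members, ordered by the list median (black bar). Salicylic acid output lies lowest at a median of -2.19, and vascular markers highest at 0.61.

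DNA replication genes were also lower in Tsu-1. TSO2 (-1.37, SE 0.25, adjusted p = 2.6e-04) and RNR1 (-1.15, adjusted p = 0.0107), subunits of ribonucleotide reductase, and the sliding clamp genes PCNA1 (-1.20, adjusted p = 0.00134) and PCNA2 (-0.86, adjusted p = 0.0169) were the 4 called of 6 tested. TSO2 had 8.64, 8.98 and 9.78 in Kas-1 and 7.03, 7.89 and 8.26 in Tsu-1. With no filter 0 of 15 members were called higher and 11 lower, where 9.53% and 11.2% of all loci were. Among the 11 were the helicase gene MCM2 (-0.94) and MCM7 (-0.99). Without Tsu-1 arrays 7 and 9, TSO2 (-1.11) and PCNA1 (-0.97) kept their calls. In whole leaves, fewer cells of a type and less RNA of a gene per cell cannot be told apart, here or in any result above.

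Vascular markers stood higher in Tsu-1 and moved with the groups. PP2-A1 (AT4G19840), a phloem lectin gene, had 9.90, 10.36 and 10.63 in Kas-1 and 11.32, 11.65 and 12 in Tsu-1 (1.33, SE 0.14, adjusted p = 1.75e-07). The phloem genes SUC2 (0.70) and APL (0.65) and the xylem genes IRX3 (0.56) and XCP2 (0.37) were also called, 5 higher and 0 lower of 6 tested, and HB-8 was not (-0.04). The other member, XCP1, lay below the filter. With no filter 4 of 7 were called higher and 0 lower, where 9.53% and 11.2% of all loci were, and XCP2 lost its call (adjusted p = 0.0622). The mean of the list ran from 8.07 to 8.53 over the Kas-1 arrays and from 8.75 to 9.28 over the Tsu-1 arrays. Without Tsu-1 arrays 7 and 9, 4 were called higher. The part of vascular tissue in the other results was not tested.

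Jasmonate, handling and drought genes depended on which Tsu-1 arrays were used. LOX2 (AT3G45140), the lipoxygenase gene at the start of jasmonate synthesis, had 9.08, 9.38 and 10.69 in Kas-1 and 10.30, 11.06 and 11.51 in Tsu-1 (1.39, SE 0.26, adjusted p = 3.67e-04). It kept its call without Tsu-1 arrays 7 and 9 (1.46, adjusted p = 0.00125). Of 11 genes of jasmonate synthesis, LOX2 was the 1 called higher and 0 were called lower, where 13.2% and 16.9% of all tested loci were. The list mean was 10.69 and 10.17 on Tsu-1 arrays 7 and 9, 8.53 on array 8 and 9.20 to 9.65 on the other 3, against 8.64 to 9.68 in Kas-1. AOC3 spread from 6.24 to 10.19 in Kas-1 and from 6.24 to 11.15 in Tsu-1 and was not called (1.09, adjusted p = 0.247).

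Of 13 genes of jasmonate signalling and output, 2 were called higher and 0 lower, where 13.2% and 16.9% of all tested loci were. The 2 were the repressor gene JAZ3 (0.88, adjusted p = 0.0259) and the receptor gene COI1 (0.30, adjusted p = 0.0457). Neither kept its call without Tsu-1 arrays 7 and 9. In that setting 0 were called higher and 1 lower, the coronatine-induced gene CORI3 (-1.02, adjusted p = 0.0279). Of 13 genes that respond to touch, wounding and handling, 5 were called higher and 0 lower, where 13.2% and 16.9% of all tested loci were. The 5 were ERF5 (0.91), ERF6 (0.96), WRKY53 (0.93), CBF2 (0.75) and CBF3 (1.08), all of them transcription factor genes. Without Tsu-1 arrays 7 and 9 the count was 2, ERF5 (0.71) and CBF3 (0.66), and without arrays 8 and 10 it was 12. The mean of the handling list was 10.86, 11.08 and 10.67 on Tsu-1 arrays 7, 9 and 11, above the Kas-1 range of 9.24 to 10.43, and 9.37, 9.70 and 10.36 on arrays 8, 10 and 12, within it.

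Of 22 genes that respond to drought and abscisic acid (ABA), 4 were called higher and 0 lower, where 13.2% and 16.9% of all tested loci were. RD29A (AT5G52310), a dehydration-responsive gene, had 7.61, 8.12 and 8.78 in Kas-1 and 8.97, 9.63 and 11.36 in Tsu-1, without overlap, and arrays 7 and 9 held the 2 highest values (1.78, SE 0.35, adjusted p = 6.58e-04). It kept its call without them (1.16, adjusted p = 0.00498). The dehydrin gene XERO2 (1.38) and the chloroplast protein genes COR15A (0.98) and COR15B (0.51) were the others, of which XERO2 lost its call (0.72, adjusted p = 0.126). ANAC019, a NAC factor gene, had a larger difference than COR15A but a wide spread and was not called (1.47, adjusted p = 0.2). The list mean was 10.10 and 9.87 on Tsu-1 arrays 7 and 9 and 8.55 to 8.93 on the other 4, against 8.48 to 8.89 in Kas-1.

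**Figure D4:**
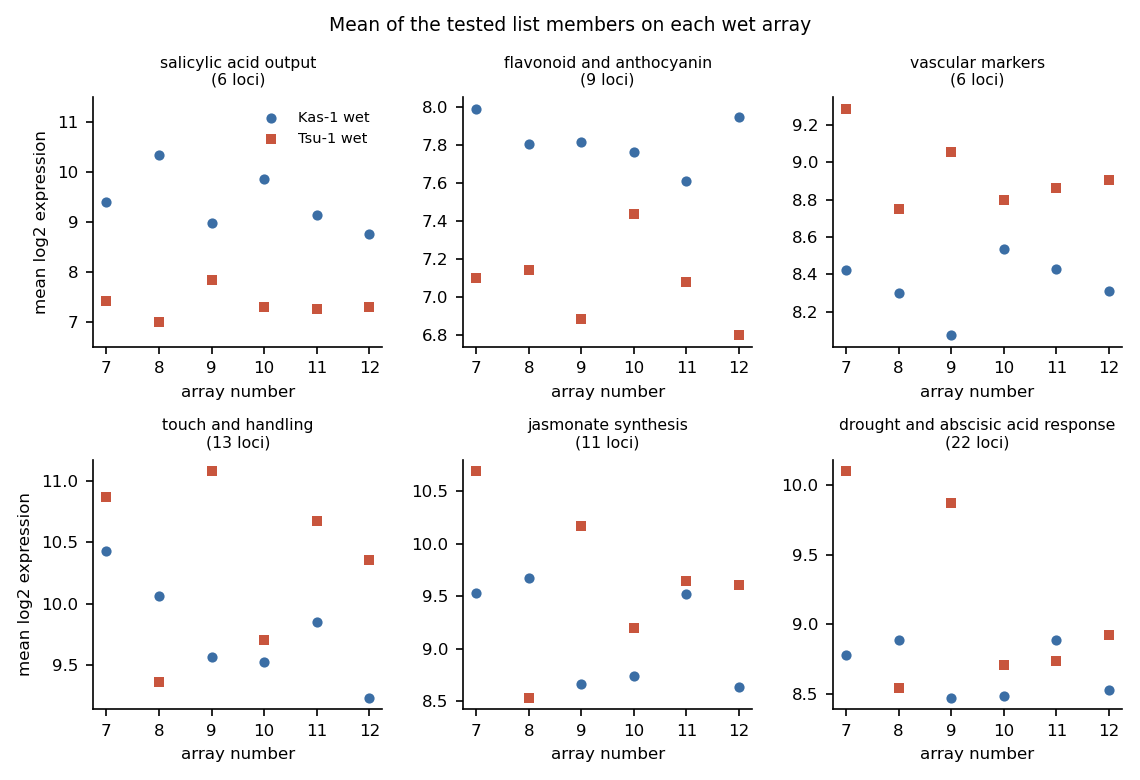
Mean log2 expression of the tested members of 6 lists on each wet array, Kas-1 as circles and Tsu-1 as squares, each panel on its own axis that does not start at 0. The accessions separate for salicylic acid output, flavonoid and vascular genes, while the handling, jasmonate and drought lists are highest on Tsu-1 arrays 7 and 9.

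Of 16 tested genes of ABA perception, 5 were called higher and 1 lower, where 13.2% and 16.9% of all tested loci were. The protein kinase genes SNRK2.2 (0.88, adjusted p = 1.55e-05), SNRK2.3 (0.88, adjusted p = 4.05e-05) and OST1 (0.88, adjusted p = 0.00255), which carry the ABA signal, were higher in Tsu-1. The phosphatase gene HAB2 (0.64) and the receptor gene PYR1 (0.38) were also higher, and the receptor gene PYL6 was lower (-0.69, adjusted p = 0.00323). The counts were 4 and 1 without Tsu-1 arrays 7 and 9, when HAB2 was not called (0.42, adjusted p = 0.0544).

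Of 22 tested genes of metal homeostasis and superoxide dismutases, 1 was called higher and 3 lower, a smaller share than the 30.1% of all tested loci. The 3 lower ones were ferritin genes, whose proteins store iron. FER1 (AT5G01600), a chloroplast ferritin gene, had 10.74, 11.08 and 11.49 in Kas-1 and 8.97, 9.64 and 10.48 in Tsu-1, without overlap (-1.36, SE 0.30, adjusted p = 0.00165). FER3 (-1.14) and FER4 (-0.93) were lower and lost their calls without Tsu-1 arrays 7 and 9 (adjusted p = 0.0638 and 0.0572). Other members gained calls in that setting. The list then had 2 called higher and 3 lower, where 8.76% and 10.4% of all tested loci were. Over all 12 arrays the copper transporter gene COPT2 was higher (0.30). The copper superoxide dismutase gene CSD2 was 12.60 to 12.89 in Kas-1 and as low as 10.43 in Tsu-1, on array 12, and was not called (-0.81, adjusted p = 0.0845). The iron superoxide dismutase gene FSD1 ranged from 4.70 to 8.91 in Kas-1 and from 4.21 to 7.98 in Tsu-1 (-0.88, adjusted p = 0.435).

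Of 13 genes that respond to phosphate starvation, 4 were called higher and 2 lower, where 13.2% and 16.9% of all tested loci were. PAP3 (AT1G14700), a purple acid phosphatase gene, had 6.05, 6.46 and 6.64 in Kas-1 and 8.37, 9.09 and 9.62 in Tsu-1 (2.62, SE 0.19, adjusted p = 8.25e-10). PAP12 (1.57), the galactolipid synthase gene MGD3 (0.99) and SPX2 (0.29) were higher, and PS3, a glycerol-3-phosphate permease gene, was lower (-0.91), as was the phosphatase locus AT1G13900 (-0.29).

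Of 12 senescence and dark response genes, 5 were called higher and 0 lower, where 13.2% and 16.9% of all tested loci were. SEN1 (AT4G35770) had 5.78, 6.35 and 6.69 in Kas-1 and 6.74, 8.0 and 10.51 in Tsu-1 (2.16, SE 0.60, adjusted p = 0.0101), with Tsu-1 arrays 8 and 12 above 10 and array 7 near Kas-1. DIN10, a raffinose synthase-like gene (1.39), the NAC factor gene NAP (0.78), the chlorophyll breakdown gene SGR1 (0.53) and WRKY53 were the others. SEN1 (2.69) and DIN10 (1.96) kept their calls without Tsu-1 arrays 7 and 9 and the other 3 did not, while SAG21 was then called lower (-0.94, adjusted p = 0.0300). Of 7 proline and raffinose genes, 3 were called higher and 0 lower, beside the same 13.2% and 16.9% of all tested loci. The 3 were DIN10 again, the proline dehydrogenase gene ERD5 (1.02, adjusted p = 4.31e-04) and GOLS3 (0.93, adjusted p = 0.00363).

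Clock and light receptor genes were called about as often as all tested loci (30.1%), but only as higher. Of all tested loci 13.2% were called higher and 16.9% lower. In the clock list 4 of 12 were called higher and 0 lower, led by ELF4, an evening gene (0.74, adjusted p = 1.34e-04), with PRR5 (0.47), TOC1 (0.46) and GI (0.33), and 2 were called without Tsu-1 arrays 7 and 9. In the light receptor list 4 of 15 were called higher and 0 lower, the phytochrome genes PHYD (0.74, adjusted p = 1.05e-04) and PHYE (0.71, adjusted p = 3.32e-05) and the cryptochrome genes CRY2 (0.56) and CRY1 (0.39). Aquaporin genes had 3 of 14 called higher and 0 lower, where 13.2% and 16.9% of all tested loci were. The 3 were PIP1A (0.67, adjusted p = 2.54e-05), PIP2A (0.37) and PIP2;4 (0.23), and 1 was called without Tsu-1 arrays 7 and 9. Among 14 gibberellin genes 2 were called higher and 1 lower, beside the same 13.2% and 16.9% of all tested loci. GA2OX2, which inactivates the hormone, was higher by 1.36 (SE 0.18, adjusted p = 6.37e-06), the receptor gene GID1A was higher (0.49), and GA2, an early synthesis gene, was lower (-0.46).

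The next lists stand beside the shares of all tested loci, 13.2% called higher and 16.9% lower. Of 11 lipid transfer protein genes, LTP2 was called lower and LTP7 (0.80), DIR1 (0.83) and LTP5 (0.29) higher. In the Calvin cycle and photorespiration list 1 of 17 was higher, HPR1 (0.45), and 2 were lower, RPE (-0.54) and FBA1 (-0.31). Of 5 heat shock genes, BOB1 was lower (-0.44). The root marker list had NRT2.1, a nitrate transporter gene, higher (0.42). Of 11 tested genes often used as references, 0 were called higher and 4 lower, where 13.2% and 16.9% of all tested loci were. The 4 were ACT8 (-0.77, adjusted p = 1.21e-05), GAPC1 (-0.56), CYP5 (-0.39) and GAPC2 (-0.20). ACT2 (0.19, adjusted p = 0.0852) and UBQ10 (0.03, adjusted p = 0.818, and -0.05 without Tsu-1 arrays 7 and 9) were not called. The mean of the reference list ran from 10.63 to 10.70 over the Kas-1 arrays and from 10.33 to 10.61 over the Tsu-1 arrays. Over all 38 lists, 113 of 349 tested members were called (32.4%), close to the 30.1% of all tested loci.

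Some loci had a mean under the lower quartile of all locus means (5.21) in 1 accession and above it in the other. That quartile lies above the lowest value of the scale (3.12). In each direction, the 6 of these with the highest mean in the other group were named by rule. Lower in Tsu-1 were FLC, AT4G29200 and CIPK20, a kinase gene of calcium signalling (7.09 against 5.05, -2.04, adjusted p = 9.63e-08), and, below the filter, CRK29, CYP710A2, a sterol desaturase gene (6.66 against 4.89), and ETG1, a DNA replication gene (6.51 against 5.12). Higher in Tsu-1 were AT1G50290, IGMT1, AT1G72920 (4.91 in Kas-1 against 7.58, 2.67, adjusted p = 9.63e-08) and, below the filter, CRK14, CRK22 and AT4G15260 (4.71 against 6.95). Only 2 loci, FLC and AT4G29200, were under the quartile in Tsu-1 and above the median of tested means (7.95) in Kas-1, and 1, AT1G50290, was so the other way.

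Few of the largest differences among tested loci lay side by side. Of 6166 pairs of neighbouring tested loci, 615 had both members called, and 341 of these pairs (55.4%) went the same way. Neighbours that were both over 2-fold in 1 direction formed 8 runs that held 18 of the 391 loci. A protein-coding neighbour that was below the filter or not in the data ended a run, which can only lower these counts. The runs of 3 were AT1G67860 (1.91), AT1G67865 (2.26) and AT1G67870 (1.39) on chromosome 1, and AT4G14020 (1.76), SBP1 and SBP2 (1.65 each) on chromosome 4, all higher in Tsu-1. SBP1 and SBP2, selenium-binding protein genes, had the same value on every array, as had 110 tested loci with some other locus, so they count as 1 measurement. WAK1 and WAK2 formed a run of 2.

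The same difference was measured in dry soil on 12 other arrays. There 3757 loci were called (30.5%). Of the 3703 called in wet soil, 3585 (96.8%) had the same sign in dry soil, against 80.8% of all tested loci. Both soils called 2415 loci in the same direction, 65.2% of the wet calls and 64.3% of the dry ones, and 4 in opposite directions. Of the 391 loci over 2-fold in wet soil, 390 had the same sign in dry soil and 341 were called there. Across the 12308 loci, which are not independent replicates, the wet and dry differences had a Pearson correlation of 0.873 (jackknife SE over the wet arrays 0.036) and a Spearman correlation of 0.825.

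Most of the largest differences were of like size in both soils. FLC differed by -5.17 in dry soil, ECS1 by -4.61, AT4G29200 by -4.57, PNP-A by -5.04, AT1G50290 by 3.77 and CRK4 by 3.33. Others were far from equal in size. AT1G47400 differed by 3.17 in wet and 1.01 in dry soil, IGMT1 by 3.38 and 1.37, and CYP81F2 by 0.97 and -1.06, being called in opposite directions (adjusted p = 0.0468 and 0.031). No locus was called by limma for the difference between the soils (0 of 12308, 0%), at an unadjusted p under 0.05 there were 722, and the adjusted p was 0.652 for AT1G47400, 0.697 for IGMT1 and 0.460 for CYP81F2.

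**Figure D5:**
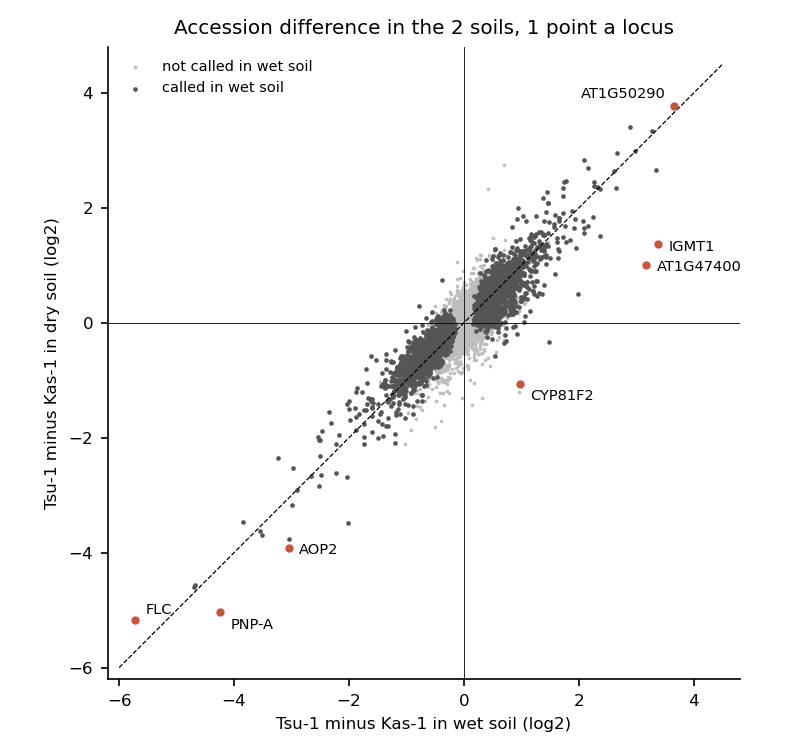
Log2 difference of Tsu-1 minus Kas-1 in dry soil against that in wet soil for 12308 loci, with the line of equal difference dashed and 7 named loci in red. FLC and AT1G50290 lie near the line, and AT1G47400, IGMT1 and CYP81F2 lie below it.

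The 8 loci with the smallest p-values for the difference between the soils showed small differences in wet soil for the most part. AT5G48960 was lower in wet Tsu-1, with 7.72, 7.82 and 8.10 in Kas-1 and 6.90, 7.06 and 7.26 in Tsu-1 (-0.77, adjusted p = 1.99e-04), and AT1G78410 was higher (1.48, adjusted p = 5.67e-04). AT1G53035 (-0.38, adjusted p = 0.0418) and the histone gene HTA7 (0.27, adjusted p = 0.033) were called with differences of 1.3-fold or less. NPH3 (-0.13), AT5G27950 (-0.24), ROP2 (0.20) and AT4G30650, whose groups had means of 11.16 and 11.15, were not called. The smallest adjusted p of the difference between the soils was 0.0689, for AT1G53035 and AT5G48960.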

How the data were processed

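The 24 arrays share 1 deposited table of 20514 loci. Its values run from 3.12 to 14.2, from which the log2 scale of the deposited expression was taken. MAS5 is named in the submitters' processing notes, with no version or role, so background correction, probe summary and scaling are not given in the sources used here. Nor is it given whether probes that mismatch an accession's sequence were left out. A mismatch lowers signal at equal transcript level, and its part in the differences was not tested. The number of arrays limits the precision.

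Loci were named through the RefSeq table for TAIR10.1, which matched 20290 loci and left 224 unmatched. It holds no gene descriptions, so a planned count by gene family was not run. No sequence was used. Chromosome and start position served only to order neighbouring loci and to count calls by chromosome.

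From the deposited log2 values, 4 group means over all 24 arrays were fitted with limma 3.58.1 in R 4.3.3, with an intensity trend, and p-values (two-sided) were adjusted by Benjamini and Hochberg over the 12308 tested loci. All adjusted p-values are from limma. The accession difference in wet soil, that in dry soil and the difference between them were taken from this fit. The fit was tested on simulated data. Means are given with the SD over 6 arrays. The median log2 difference of all tested loci was -0.01.

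Loci were named by a rule: in each direction the 12 with the largest called difference whose higher group mean exceeded the median of tested means, the list members, the 8 loci with the smallest p for the difference between the soils, the longest runs of at least 3 neighbours over 2-fold, and up to 6 loci per direction with signal near the low end in 1 accession. The 38 lists hold 581 loci, with 502 present in the table and 349 above the filter. The comparison, the members and the lists were chosen with earlier results of these data known.

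In 26 other settings the filter, scaling, array weights, trend, arrays fitted, pairing by number and averaging of arrays were changed, or 1 or 2 arrays were left out.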

Additional observations from a re-analysis of the deposited data

Results flagged for a closer look

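Among the named loci, 332 groups of 6 arrays were examined for 1 array far from the other 5. The number found, 16, was about what chance gives (1 in 20), so the list below marks no array as faulty. In Kas-1, array 8 held 5 of them: it was low for HAB2 (7.30, next array 7.58) and high for WAK1 (10.7), C4H (10.2), PR2 (10.6) and CRK5 (9.44). Array 7 was low for GSTF9 (12.7) and high for TSF (6.61), array 9 was low for XCP2 (7.74) and high for IGMT1 (5.21), and array 12 was low for ACT2 (11.6) and high for CORI3 (7.44). In Tsu-1, array 9 was high for FLC (5.31, next array 4.86), array 10 was low for SOC1 (7.17) and high for F3H (6.56), array 8 was low for CYCD3;1 (6.29) and array 12 was low for UGT78D1 (4.97). For FLC, SOC1, PR2, WAK1, C4H, CRK5, TSF, UGT78D1 and HAB2 the accessions did not overlap with these arrays included.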

How the results depend on the processing

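The count of called loci was between 2661 and 4504 under all planned settings but that without Tsu-1 arrays 7 and 9 (2356, 1078 higher and 1278 lower), and fell to 2238 (1005 higher and 1233 lower) with the closest Tsu-1 arrays averaged to 3, a setting chosen after seeing the data. Fewer arrays entered both fits. Leaving out 1 wet array at a time gave 2873, without Tsu-1 array 7, to 4257, without Tsu-1 array 10 (1250 to 1835 higher, 1615 to 2422 lower). Loci over 2-fold numbered 821 without Tsu-1 arrays 8 and 10, and 320 to 532 with 1 array left out. For the difference between the soils, 42 loci were called with array weights, 2 at the 60th percentile filter, 12 without Tsu-1 arrays 7 and 9, 8 without arrays 8 and 10, and 0 to 1 with 1 array left out, the 1 being without Kas-1 array 8. The correlation of the wet and dry differences was 0.830 with array weights, 0.808 without Tsu-1 arrays 7 and 9, 0.819 without arrays 8 and 10, and 0.848 to 0.884 with 1 array left out. The cause of these moves was not tested. The numbers in the titles did not pair the arrays: deviations of same-numbered arrays correlated at -0.393 to 0.373, over 0.1 in 2 of 6 pairs, and 1 of 6 Kas-1 arrays correlated best with its own number. The replicate block gave 3582 calls. Of 139 named loci called, 100 kept call and direction under every setting that tested them. The 60th percentile filter tested only 120 of the 166 named loci. Leaving out 1 array ended 2 (Tsu-1 array 8) to 18 (Tsu-1 array 7) calls. The loci that lost a call in this way were AT1G53035, CBF2, CHI, COI1, CRY1, CYP81F2, CYP81F3, FBA1, FLK, GAPC2, GI, HTA7, JAZ3, LTP5, NAP, PIP2;4, SGR1, SVP, TOC1, WRKY53 and XCP2. Of the named calls 34 ended without Tsu-1 arrays 7 and 9, also those of HAB2, TEM1, RNR1, SPX2, PCNA2, CYP5, FER3, FER4, GID1A, RPP13, RPS4, XERO2, PIP2A and ERF6, and with the closest Tsu-1 arrays averaged to 3, 28 ended, also those of GSTF9, COR15B, COPT2 and PYR1. CSD2, CA1, GRX480, WRKY40 and AOS were called without Tsu-1 array 8, BGLU18 without Kas-1 array 8, CORI3 and ROP2 without Tsu-1 array 7, ACT2 without Tsu-1 array 11, and AT5G27950 without Tsu-1 array 9 or Kas-1 array 8. The 4 named loci that changed sign were not called under those settings: GRX480 (-0.0093) and CA1 (0.029) without Tsu-1 arrays 7 and 9, UBQ10 (-0.0039 with array weights, -0.047 without arrays 7 and 9, -0.016 to 0.091 with 1 array left out), and AT4G30650 (0.050 with quantile normalization, 0.0037 with median centring, -0.058 to 0.062 with 1 array left out).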

Other observations

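Some genes that the accession comparison over all 12 arrays did not call differed widely among the Tsu-1 wet arrays. CA1, a chloroplast carbonic anhydrase gene, was at 11.2 and 10.9 on Tsu-1 arrays 7 and 9, at 13.0 and 12.7 on arrays 8 and 10, and between 12.1 and 12.6 on the 6 Kas-1 arrays. Its log2 difference was -0.42 (adjusted p = 0.237), and without Tsu-1 array 8 it was -0.63 (adjusted p = 0.048). ANAC019, a NAC factor gene, was at 11.7 and 10.4 on Tsu-1 arrays 7 and 9, at 6.35 and 7.5 on arrays 8 and 10, and between 6.05 and 9.64 in Kas-1. CSD2 did not follow these pairs: it was at 11.4 and 10.4 on Tsu-1 arrays 11 and 12 and above 12 on every other wet array. The list means of heat shock genes were 8.96 and 8.89 on Tsu-1 arrays 7 and 9, 7.63 and 7.78 on arrays 8 and 10, and 7.67 to 8.82 in Kas-1.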
